A study of Gallus gallus with 18 samples.

Results

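Solute carrier genes were examined in adipose, liver and ovary of broiler breeder hens. They were taken as all genes whose symbol begins with SLC or SLCO and a digit in the study's feeding list or in its list of genes specific to a tissue. This gave 124 of the 17108 genes in the deposited counts, each matched by its Ensembl identifier. The first list named 79 of them and the second 78, with 33 in both. The first list was held here only in part and is ordered by the feeding contrast, and the second was made from levels in these tissues. The study's own test values in the first list were not read, so a place in it is not taken as a call by the study. Counts and medians of solute carrier genes between tissues or feeding groups therefore describe these genes and are no test of them. This holds also where the share of all genes stands beside them. The symbol does not make each a carrier: SLC27A5 is an enzyme, and SLC4A1AP, SLC7A6OS and SLC9A3R1 are only named after a carrier.

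Solute carriers are membrane proteins that move amino acids, sugars, organic acids, vitamins, metals and other ions across the cell surface or the membrane of an organelle, either down a gradient or coupled to a second ion. Hepatocytes are known for organic anion, bile acid and amino acid uptake. By the study's account, lipids are made mainly in the liver. From there they are carried to adipose tissue, which stores and releases them, or to the ovary, where the oocyte develops.

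The hens were of the Arbor Acres strain and 30 wk of age. From 22 wk on, 3 hens ate ad libitum and 3 hens stayed on the restricted allowance of the breeder's guide. Each hen gave abdominal fat, liver and ovarian stroma with its small follicles, so the 18 libraries hold 6 of each tissue. A library is named by a letter (F for adipose, G for liver, M for ovary) and the number of its hen. Adipose libraries were thus F1721, F1723 and F1725 with ad libitum and F1724, F6709 and F6710 with restricted feeding, and levels of single hens below are given in this order. All were bulk tissue pieces, in which fewer cells of a type and less RNA per cell cannot be told apart.

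Library totals ranged from 14793554 to 23261748 counts. Levels below are counts scaled to library size (CPM) with TMM factors over all 18 libraries, and 3 counts in a library correspond to 0.0843 to 0.355 CPM on this scale. Summed markers of liver reached 584670 to 930830 CPM in liver and at most 963 CPM elsewhere. Liver TMM factors were 0.423 to 0.498, so liver levels on this scale exceed plain CPM and are no shares of reads. Adipose markers summed to 9978 to 25250 CPM in adipose and at most 207 CPM elsewhere, and ovary markers to 644 to 1233 CPM in ovary and at most 85.3 CPM elsewhere. Single libraries stood apart from the others of their tissue. In ovary M1723, 6 matched adrenal gland markers summed to 3502 CPM (70.6 to 236 CPM in the other ovaries) and 6 erythrocyte markers to 2825 CPM (43.0 to 355 CPM). In ovary M1724, 2 matched smooth muscle markers summed to 5720 CPM (263 to 1055 CPM). In adipose F6709, both lung markers summed to 651 CPM (0.0968 to 12.7 CPM).

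The first question was which tissue expressed each gene. A gene was called highest in a tissue where the edgeR quasi-likelihood FDR was under 0.1 and the log2 difference at least 1 against both other tissues, over 13426 genes tested in the 18 libraries. Of 123 solute carrier genes tested, 73 were called, 41 in liver, 20 in ovary and 12 in adipose. Among all genes tested, 13.9% were called highest in liver, 16.0% in ovary and 10.8% in adipose. For 63 of the 73 genes, all 6 libraries of the tissue lay above all 12 others. The 73 were already chosen by their gap between tissues, and the share over all called genes is not given here. Nothing is read from that count. The other 50 genes were not called, and SLC30A2, a zinc carrier of secretory vesicles, was not tested, with at most 3.12 CPM in any library. Mean levels on the TMM scale lay within a factor of 2 of each other in all 3 tissues for 28 genes, and 104 genes had over 3 counts in every one of the 18 libraries.

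TMM factors were 0.423 to 0.498 in liver, 1.10 to 1.33 in adipose and 1.59 to 1.79 in ovary, so the scaling bears on the share of liver genes. With library size alone, 25 solute carrier genes were highest in liver, 35 in ovary and 9 in adipose, against 5.24%, 29.1% and 10.4% of all genes. That scaling moved the median log2 difference of all genes by -1.35 between liver and adipose, by 0.49 between ovary and adipose and by -1.85 between liver and ovary. Of the 41 genes called in liver, 32 kept their direction against both tissues under it, and 9 turned against ovary: SLC25A4, SLC25A21, SLC25A25, SLC30A1, SLC9A8, SLC26A2, SLC22A4, SLC19A1 and SLC9A3R1. Of these 9, SLC25A25, SLC9A8, SLC22A4 and SLC19A1 turned against adipose as well. All 20 genes called in ovary and all 12 called in adipose kept theirs. The scaling bears on genes of like level in all tissues as well, so flattest below refers to the TMM scale.

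**Figure D1:**
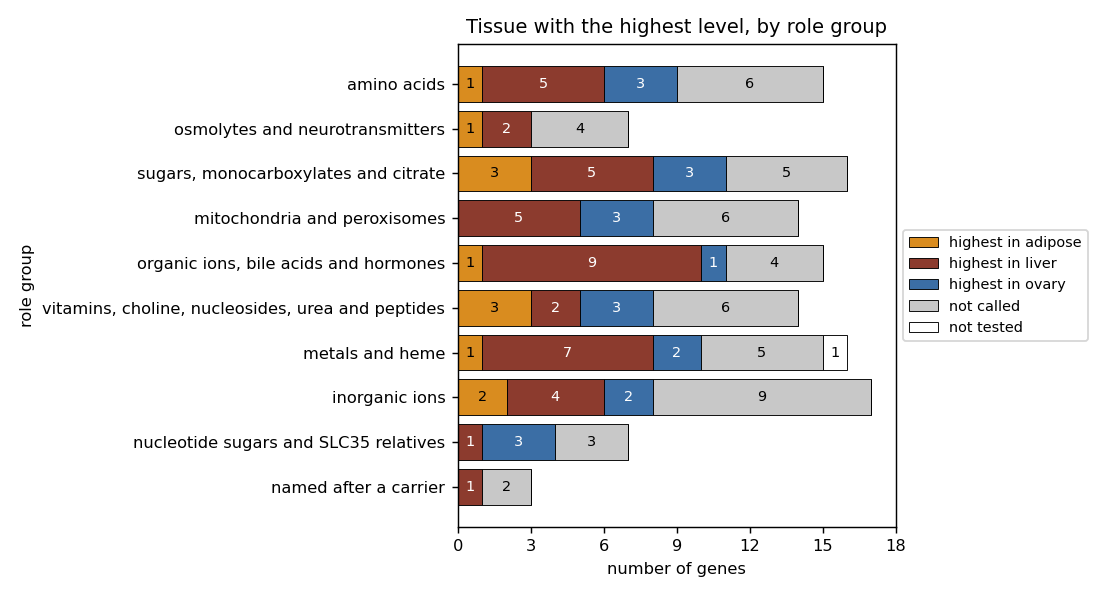
Number of genes (horizontal axis) called highest in adipose, liver or ovary, not called or not tested, for each of the 10 role groups. Carriers of organic ions, bile acids and hormones have 9 of 15 genes highest in liver, and the SLC35 relatives have 3 of 7 highest in ovary.

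Amino acid carriers were divided among the tissues, with 5 of 15 highest in liver, 3 in ovary and 1 in adipose. SLC38A4, a sodium-coupled carrier of neutral amino acids known from liver, had a level of 970 to 2083 CPM in liver (median 1559 CPM), 1.33 to 11 CPM in ovary and 0.387 to 3.53 CPM in adipose. Its log2 difference between liver and ovary was 8.59 (SE 0.52). SLC38A3, a sodium-coupled glutamine carrier, lay at 165 to 313 CPM in liver, at 1.15 to 12 CPM in ovary and at 0.371 to 0.880 CPM in adipose. The ranges of liver and of both other tissues did not overlap for either gene. SLC7A2, a carrier of arginine, lysine and ornithine, averaged 418 ± 170 CPM in liver (SD, n = 6), 22.6 ± 9.92 CPM in ovary and 7.41 ± 3.71 CPM in adipose. SLC1A1, a glutamate, aspartate and cystine carrier, averaged 199 ± 16.6 CPM in liver, 14.6 ± 5.15 CPM in adipose and 4.65 ± 2.74 CPM in ovary. The related glutamate carrier SLC1A6, known from Purkinje neurons, had the reverse order of liver and adipose. It lay at 86.8 to 276 CPM in adipose (median 124 CPM), 1.37 to 11 CPM in ovary and 0.639 to 2.67 CPM in liver.

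Ovary was the main site of SLC6A17 and SLC38A11. SLC6A17, a neutral amino acid carrier known from synaptic vesicles, had levels of 18.6 to 42.5 CPM in ovary (median 30.9 CPM) and 0 counts in all 6 liver libraries. Taken against the highest floor of 3 counts per liver library, its ovary mean was at least 88.0-fold higher. In adipose it had 9 counts over 6 libraries. SLC38A11, a less known member of the sodium-coupled neutral family, lay at 16.0 to 61.8 CPM in ovary, with 18 counts over the 6 adipose libraries and 10 over the 6 liver libraries. Both genes were thus at the limit of detection outside ovary. The flattest gene of the group was SLC7A5, the light chain of a large neutral amino acid exchanger, with means of 9.55, 10.1 and 8.66 CPM in adipose, liver and ovary. Its difference between liver and adipose was 0.02 (SE 0.45) on the log2 scale, and changed sign with the scaling, the filter and the hens included.

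Among 7 carriers of osmolytes and neurotransmitters, 2 were highest in liver and 1 in adipose. SLC6A12, a betaine and GABA carrier, lay at 53.2 to 208 CPM in liver (median 59.8 CPM), 0.682 to 2.57 CPM in ovary and 0.149 to 1.41 CPM in adipose. SLC5A3, the sodium-coupled carrier of myo-inositol, lay at 37.6 to 157 CPM in liver, 12.6 to 19.1 CPM in ovary and 7.40 to 13.3 CPM in adipose. For both genes, liver did not overlap with the other tissues. SLC18A1, the vesicular monoamine carrier of chromaffin cells, had the smallest range of the group, with means of 11.6, 12.3 and 12 CPM in adipose, liver and ovary. Its ovary mean rested on M1723 (37.9 CPM), since the other 5 ovaries lay at 5.08 to 7.53 CPM, and the sign of its log2 difference between liver and ovary (0.20, SE 0.34) turned with library size alone.

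**Figure D2:**
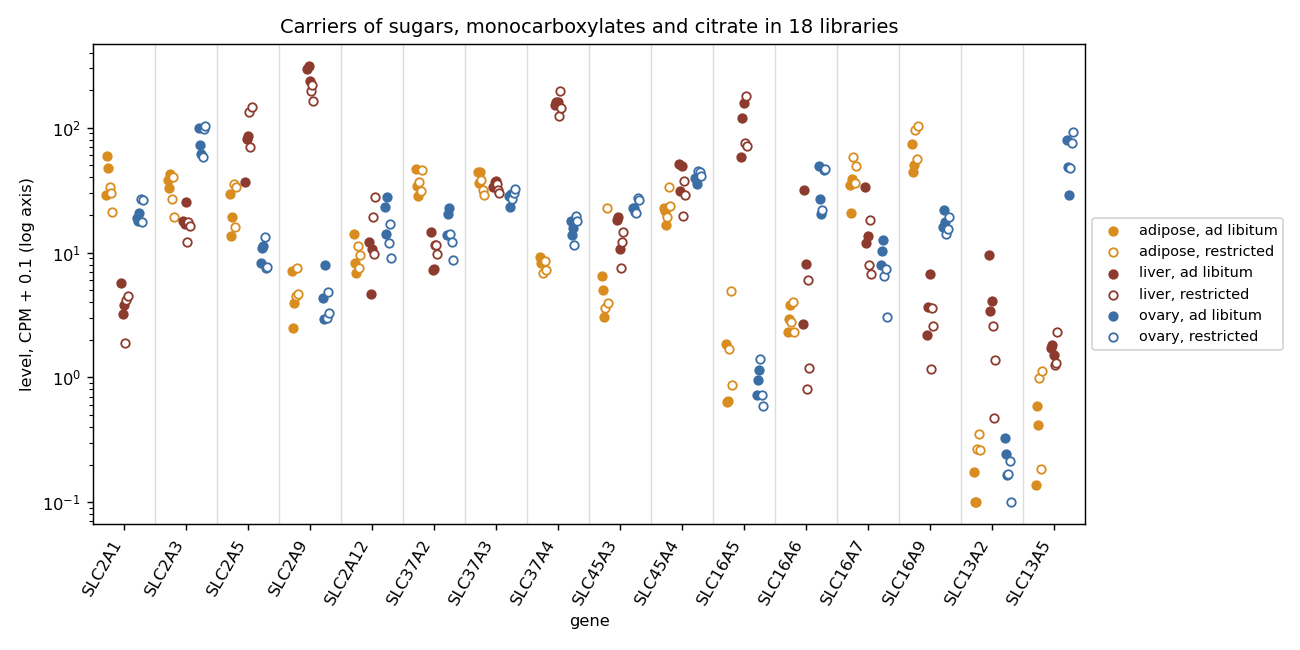
Level of the 16 carriers of sugars, monocarboxylates and citrate in 18 libraries, as CPM + 0.1 on a log axis, with 1 point per library, filled for ad libitum and open for restricted feeding. SLC2A9, SLC37A4 and SLC16A5 have all liver points above the others, and SLC13A5 has all ovary points above the others.

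Carriers of sugars, monocarboxylates and citrate had 5 of 16 genes highest in liver, 3 in ovary and 3 in adipose. The hexose facilitators differed in their tissue. SLC2A1, the widespread glucose facilitator, lay at 20.9 to 59.6 CPM in adipose, 17.6 to 26.8 CPM in ovary and 1.77 to 5.63 CPM in liver. Adipose and ovary overlapped and it was not called, although all liver libraries lay below all others. SLC2A3, a glucose facilitator known from neurons, lay at 58.7 to 103 CPM in ovary, 19 to 42.8 CPM in adipose and 12 to 25.3 CPM in liver, with every ovary library above the rest. SLC2A5, a fructose facilitator, lay at 36.4 to 148 CPM in liver, 13.5 to 35.3 CPM in adipose and 7.43 to 13.1 CPM in ovary. SLC2A9, a urate facilitator of the hexose family, lay at 164 to 314 CPM in liver, 2.37 to 7.38 CPM in adipose and 2.85 to 7.86 CPM in ovary. Liver lay above the other tissues in all libraries for both. SLC2A12, a further hexose facilitator, was spread alike, at 6.72 to 14.0 CPM in adipose, 4.51 to 27.7 CPM in liver and 8.97 to 27.9 CPM in ovary.

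The sugar phosphate exchangers of the endoplasmic reticulum also differed. SLC37A4, the glucose-6-phosphate carrier that serves glucose release, lay at 124 to 198 CPM in liver, 11.3 to 19.6 CPM in ovary and 6.77 to 9.06 CPM in adipose, a log2 difference of 3.29 (SE 0.16) between liver and ovary. SLC37A2 lay at 28.3 to 47.0 CPM in adipose, 8.57 to 22.7 CPM in ovary and 7.09 to 14.6 CPM in liver, without overlap of adipose and the others. SLC37A3 was the flattest gene of the group, with means of 37.1, 33.9 and 28.3 CPM in adipose, liver and ovary. The sugar carrier SLC45A3, known from prostate, lay at 20.7 to 27.3 CPM in ovary and 7.36 to 19.3 CPM in liver. In adipose its 6 levels ran from 2.95 to 22.4 CPM, the highest being F6709. Its relative SLC45A4 averaged 40.5 ± 3.43 CPM in ovary, 36.1 ± 12.2 CPM in liver and 22.7 ± 5.76 CPM in adipose (SD, n = 6), and neither gene was called.

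Among the monocarboxylate family, SLC16A5 lay at 58.6 to 179 CPM in liver and at no more than 4.84 CPM in any adipose or 1.30 CPM in any ovary library. SLC16A9, which is linked with carnitine, lay at 44.4 to 103 CPM in adipose, 14.0 to 21.8 CPM in ovary and 1.06 to 6.62 CPM in liver. SLC16A7, a pyruvate and lactate carrier, lay at 20.6 to 58.4 CPM in adipose, 6.67 to 33.7 CPM in liver and 2.92 to 12.5 CPM in ovary, so that adipose and liver overlapped. SLC16A6, a ketone body exporter as known from zebrafish liver, was an ovary gene at 20.3 to 49.4 CPM, with 2.19 to 3.90 CPM in adipose. Its 6 liver levels ran from 0.709 to 31.9 CPM, so that liver and ovary overlapped through G1723. The 2 carriers of di- and tricarboxylates were highest in different tissues. SLC13A5, the sodium-coupled citrate carrier of the plasma membrane, lay at 28.7 to 91.8 CPM in ovary, 1.15 to 2.19 CPM in liver and 0.0371 to 1.03 CPM in adipose, and its log2 difference between ovary and liver was 5.30 (SE 0.46). SLC13A2, a dicarboxylate carrier, lay at 0.368 to 9.45 CPM in liver and at no more than 0.254 CPM in adipose and 0.225 CPM in ovary.

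Of 14 carriers of mitochondria and peroxisomes, 5 were highest in liver and 3 in ovary. SLC25A1, the mitochondrial citrate carrier that supplies cytosolic citrate for fatty acid synthesis, lay at 815 to 1304 CPM in liver (median 1017 CPM), 78.1 to 176 CPM in adipose and 44.7 to 62.1 CPM in ovary. SLC25A33, a pyrimidine nucleotide carrier, lay at 33.1 to 104 CPM in liver and at most 11 CPM elsewhere. SLC25A21, an oxodicarboxylate carrier, averaged 17.4 ± 4.77 CPM in liver, 5.91 ± 1.76 CPM in ovary and 1.62 ± 1.0 CPM in adipose (SD, n = 6). The log2 difference of SLC25A21 between liver and ovary was 1.55 (SE 0.28), and -0.30 with library size alone. In ovary, SLC25A42, a coenzyme A carrier, lay at 37.5 to 82.3 CPM, above 7.36 to 24.0 CPM in liver and 6.20 to 14.9 CPM in adipose. SLC25A39, a glutathione carrier, was the flattest, with means of 63.3, 58.1 and 50.1 CPM in adipose, liver and ovary.

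Carriers of organic ions, bile acids and hormones were the group with most liver genes, 9 of 15. SLCO1B3, an organic anion carrier known from hepatocytes, lay at 443 to 857 CPM in liver (median 630 CPM). Over 6 libraries it had 40506 counts in liver, 52 in adipose and 18 in ovary. SLCO1A2, another organic anion carrier, lay at 364 to 835 CPM in liver, 0.886 to 5.68 CPM in ovary and 0.127 to 1.58 CPM in adipose. For both, every liver library lay above every other library. SLC51A, a subunit of the basolateral bile acid and steroid carrier, lay at 59.5 to 168 CPM in liver, and SLC27A5, a bile acid-CoA ligase of the fatty acid transport family, at 207 to 243 CPM. The next tissue was adipose for both, with means of 1.06 ± 0.67 CPM for SLC51A and 5.24 ± 1.19 CPM for SLC27A5 (SD, n = 6). SLC22A3, an organic cation carrier, was the 1 gene of this group called in ovary, at 25.5 to 68.4 CPM, with at most 2.13 CPM elsewhere. SLCO3A1, linked with prostaglandins, was the 1 adipose gene, at 18.3 to 77.0 CPM against 9.32 to 23.1 CPM in ovary and 1.37 to 2.77 CPM in liver. SLC22A3 and SLCO3A1 were chosen for mention after their values were seen. SLC10A7, of the bile acid family and linked with calcium, had nearly 1 level everywhere, with means of 32.6, 34.0 and 33.8 CPM in adipose, liver and ovary. Its log2 difference between liver and ovary was 0.01 (SE 0.16) and changed sign with the scaling.

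Of 14 carriers of vitamins, choline, nucleosides, urea and peptides, 3 were highest in ovary, 3 in adipose and 2 in liver. SLC15A1, the peptide carrier of the intestine, lay at 38.5 to 95.4 CPM in ovary (median 80.4 CPM) and at most 0.643 CPM in liver. In adipose it lay at 11.6 CPM in F1721 and at 0.242 to 0.815 CPM in the other hens. SLC15A5, of the same peptide family, lay at 19.1 to 61.8 CPM in ovary, with 24 counts over the 6 adipose and 8 over the 6 liver libraries. SLC19A2, a thiamine carrier, lay at 44.8 to 120 CPM in ovary, 1.42 to 6.01 CPM in liver and 1.21 to 2.27 CPM in adipose. No ovary library overlapped with another tissue for these 3 genes. SLC14A2, a urea carrier, lay at 2.39 to 12.1 CPM in adipose and at most 1.02 CPM elsewhere. SLC23A2, an ascorbate carrier, had the smallest range, with means of 17.1, 15.5 and 19 CPM in adipose, liver and ovary. Its log2 difference between ovary and adipose was 0.11 (SE 0.32), and it changed sign without the hen of M1723 (-0.093) or of M6710 (-0.011).

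Metal and heme carriers had 7 of 16 genes highest in liver, 2 in ovary and 1 in adipose. SLC39A5, a zinc importer, lay at 69.8 to 130 CPM in liver, with 30 counts over the 6 adipose and 7 over the 6 ovary libraries. The copper importer SLC31A1 lay at 270 to 413 CPM in liver and 8.33 to 28.8 CPM in adipose. Its 6 ovary levels ran from 17.6 to 75.9 CPM, with a median of 17.8 CPM. SLC41A3, of the magnesium carrier family, lay at 87.3 to 173 CPM in liver and at most 12.6 CPM elsewhere. In contrast to SLC39A5, the zinc importer SLC39A12, known from brain, was an ovary gene, at 4.81 to 31.1 CPM against at most 1.63 CPM in adipose and 0.919 CPM in liver. SLC30A9, of the zinc exporter family, was the flattest gene tested in this group, with means of 18.4, 24.1 and 28.3 CPM in adipose, liver and ovary.

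Of 17 inorganic ion carriers, 4 were highest in liver, 2 in ovary and 2 in adipose, and 9 were not called. SLC26A9, a chloride carrier of epithelia, lay at 32.8 to 199 CPM in liver and at 0.169 to 0.759 CPM in ovary. In adipose it lay at 5.90 CPM in F6709 and at 0.0371 to 0.326 CPM in the others. SLC26A5, prestin of cochlear hair cells, lay at 155 to 411 CPM in liver, 23.2 to 43.8 CPM in adipose and 18.1 to 30.8 CPM in ovary. SLC4A7, a sodium bicarbonate cotransporter, was an ovary gene at 29.7 to 78.7 CPM, with 5.76 to 18.7 CPM in adipose and 3.46 to 8.21 CPM in liver. SLC4A1, the band 3 anion exchanger of erythrocytes, was called in adipose, with 7.46 to 40.0 CPM. Its liver levels were 3.37 to 9.74 CPM and its ovary levels 0.182 to 22.6 CPM, so the tissues overlapped. Summed erythrocyte markers lay at 121 to 1025 CPM in adipose, 355 to 1096 CPM in liver and 43.0 to 2825 CPM in ovary, and their part in the SLC4A1 levels was not tested. The sulfate and chloride carrier SLC26A11 was flattest, with means of 13.9, 13.1 and 15.4 CPM in adipose, liver and ovary.

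The SLC35 family, which holds the nucleotide sugar carriers of the secretory pathway, had 3 of 7 genes highest in ovary and 1 in liver. SLC35G1 lay at 52.4 to 165 CPM in ovary, 4.87 to 8.04 CPM in liver and 1.95 to 4.45 CPM in adipose. SLC35F1, known from brain, lay at 22.3 to 37.3 CPM in ovary and at most 4.4 CPM elsewhere. The nucleotide sugar carrier SLC35B4 lay at 16.3 to 36.5 CPM in ovary, 5.22 to 10.4 CPM in adipose and 3.11 to 6.30 CPM in liver. SLC35C2, of the Golgi, was the liver gene of this family, at 112 to 154 CPM against 34.8 to 48.7 CPM in adipose and 19.8 to 23.0 CPM in ovary. In each of these 4 genes the named tissue lay above the others in all 6 libraries. SLC35F6 was the flattest, with means of 32.7, 30.5 and 25.8 CPM in adipose, liver and ovary. Of the 3 genes named after a carrier, SLC9A3R1, a scaffold of the sodium/proton exchanger, lay at 78.2 to 173 CPM in liver, 28.0 to 53.3 CPM in ovary and 19.8 to 30.0 CPM in adipose. Its log2 difference between liver and ovary was 1.65 (SE 0.16), and -0.20 with library size alone. SLC4A1AP, kanadaptin, had means of 23.1, 19.2 and 33.8 CPM in adipose, liver and ovary.

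**Figure D3:**
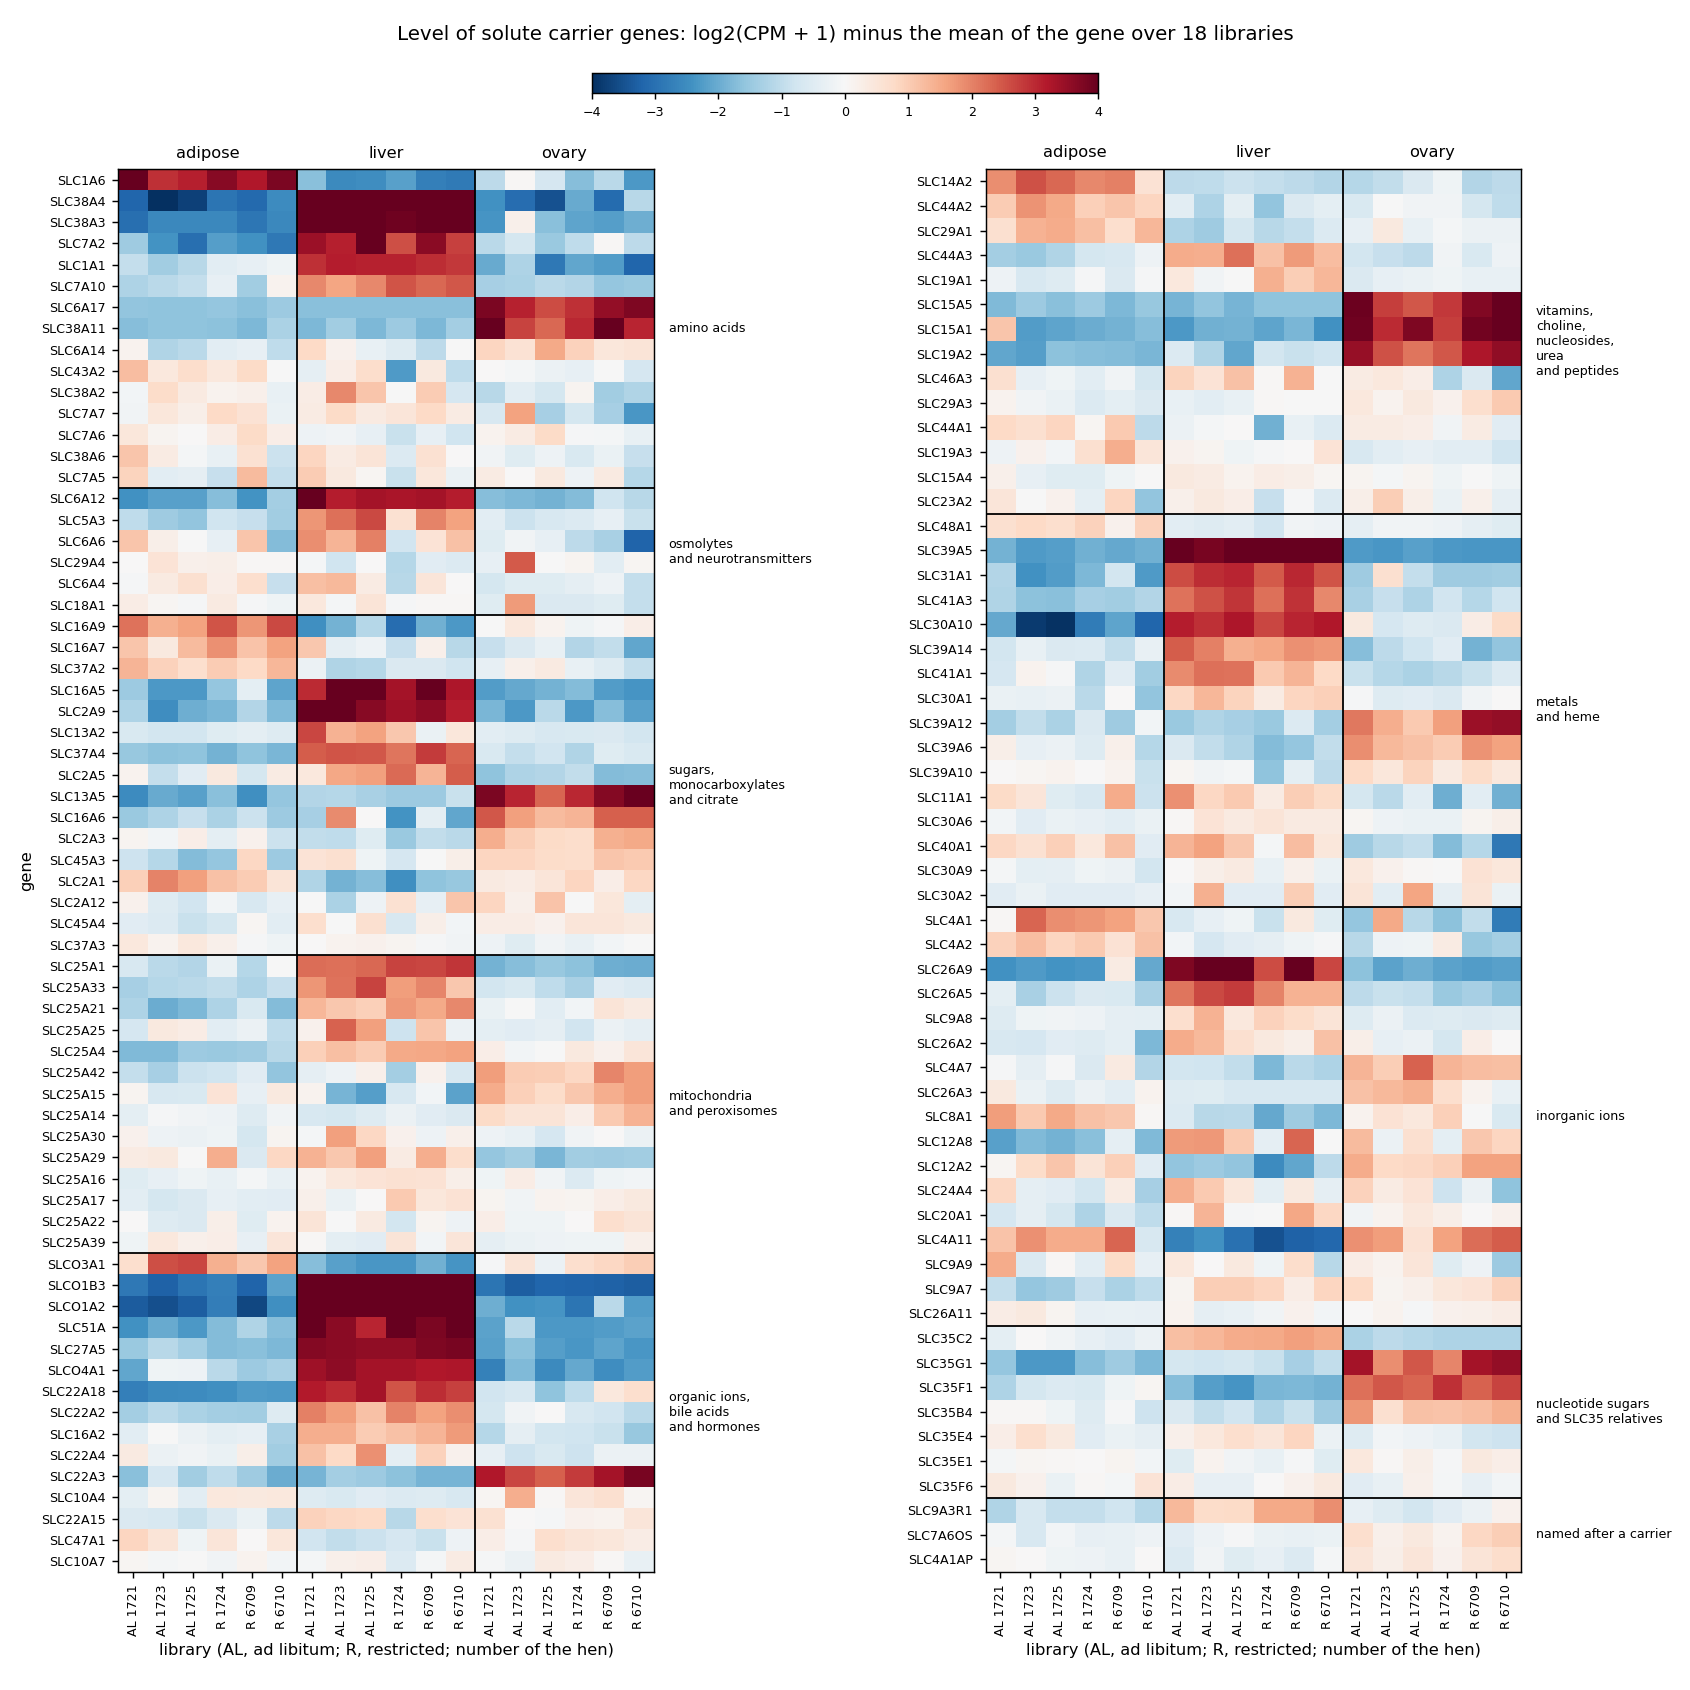
Level of 123 of the genes (rows, by role group) in each of the 18 libraries (columns), as log2(CPM + 1) minus the mean of the gene over 18 libraries, with colours ending at -4 and 4. Blocks of red mark genes of 1 tissue, such as SLCO1B3 and SLC38A4 in liver, SLC15A5 in ovary and SLC1A6 in adipose, and single red cells mark single hens, such as SLC29A4 in ovary M1723.

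The second question was how ad libitum feeding and restricted feeding differed in each tissue. No solute carrier gene passed an FDR of 0.1 in the edgeR quasi-likelihood test, with 0 of 104 tested in adipose, 0 of 104 in liver and 0 of 116 in ovary. Among all genes tested, 0.00839% passed in adipose, 0.00967% in liver and 0% in ovary. The smallest FDR of a solute carrier gene was 0.884 in adipose, 0.324 in liver and 0.878 in ovary. A gene was tested where all 3 hens of 1 feeding group or of both exceeded 1 CPM. This filter used plain CPM by library size, without the TMM factors of the levels printed here. A printed level can therefore lie above 1 CPM where the filter was not met, or below where it was. By this filter 20, 20 and 8 genes were not tested, and 6, 7 and 5 of the tested genes passed through 1 feeding group alone. DESeq2 called 2 genes in adipose, 5 in liver and 1 in ovary (0.655%, 2.33% and 0.373% of all genes). The likelihood ratio test of edgeR called 0, 2 and 0 with gene-wise dispersions (0.638%, 1.41% and 0.186% of all genes) and 0, 16 and 11 with trended dispersions (2.95%, 3.82% and 1.90% of all genes). The ovary genes called with trended dispersions included SLC18A1, SLC31A1, SLC29A4, SLC7A7, SLC4A1 and SLC38A3. In each of them M1723 was at least 2 times the next ovary. The liver genes so called included SLC6A12, SLC13A2 and SLC16A6, each with 1 hen at least 2 times the next. SLC4A1 and SLC26A3 in ovary and SLC13A2 and SLC16A6 in liver entered only through the ad libitum group. The values below describe the solute carrier genes, and each log2 fold change is ad libitum over restricted. With 3 hens against 3, an exact permutation test of 1 gene cannot go below p = 0.1, so it is stated instead whether the groups overlapped.

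In adipose, 8 solute carrier genes had an unadjusted quasi-likelihood p under 0.05, 3 higher and 5 lower in ad libitum hens (5.16% of all genes, 2.04% higher and 3.12% lower). All 8 stood in the feeding list for adipose, which is ordered by this contrast. SLC35E4, SLC51A and SLC10A4 among them entered the test through 1 feeding group alone, as did SLC38A4, SLC25A21 and SLC12A8. The adipose counts are therefore a description only. The groups did not overlap for 11 genes (8.74% of all genes, 4.98% higher and 3.76% lower), 4 higher and 7 lower. The log2 fold change lay above 0 for 58 genes (52.2% of all genes) and below for 46, with a median of 0.030, beside 0.016 over all genes. SLC44A3, of the choline carrier family, lay at 17.8, 16.4 and 20.3 CPM in ad libitum hens and at 29.3, 30.6 and 41.4 CPM in restricted hens. SLC1A1, the glutamate and cystine carrier, lay at 11.8, 8.38 and 10.4 CPM and at 17.4, 18.7 and 21.3 CPM. All restricted hens were thus above all ad libitum hens for both. Their log2 fold changes were -0.92 (SE 0.20) for SLC44A3 and -0.93 (SE 0.21) for SLC1A1, with a quasi-likelihood FDR of 0.884 each, while DESeq2 called both, with an FDR of 0.0343 and 0.0259.

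Further adipose genes had no overlap between the groups. SLC19A3, a thiamine carrier, lay at 1.60, 2.37 and 1.82 CPM with ad libitum and 3.69, 7.30 and 3.21 CPM with restricted feeding. SLC51A lay at 0.371, 0.823 and 0.499 CPM and at 1.21, 2.21 and 1.25 CPM, near the lower limit of the counts. SLC10A4, of the bile acid family and known from synaptic vesicles, lay at 0.297, 0.823 and 0.272 CPM and at 1.27, 1.23 and 1.30 CPM. SLC51A and SLC10A4 exceeded 1 CPM in every library only of the restricted group, so the filter let them in through the group where they were high. Ad libitum hens were higher for SLC35E4, of the nucleotide sugar family, at 1.71, 2.57 and 1.95 CPM against 0.660, 0.891 and 0.761 CPM (log2 fold change 1.40, SE 0.35), and it too entered the test only through the group where it was high. SLC26A11 lay at 17.2, 18.3 and 15.1 CPM in ad libitum and 10.8, 11.1 and 10.8 CPM in restricted hens (0.61, SE 0.19). The magnesium carrier SLC41A1 lay at 51.0, 90.4 and 79.1 CPM and at 35.3, 60.4 and 30.8 CPM, so its groups overlapped.

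In liver, 70 of 104 solute carrier genes had a log2 fold change above 0 (49.6% of all genes) and 34 below. Their median was 0.30, and -0.0041 over all genes. With library size alone, 65 were above 0 and 39 below. The feeding list, ordered by this contrast, named 42 of the 124 genes in its liver rows, so these values are a description only. The 4 endothelial markers summed to 812, 815 and 778 CPM in ad libitum and 282, 763 and 525 CPM in restricted livers, without overlap of the sum. Singly, CDH5 did not overlap, while PECAM1, VWF and KDR did. The part of these markers in these differences was not tested. An unadjusted quasi-likelihood p under 0.05 was found for 23 genes, 14 higher and 9 lower in ad libitum hens (13.7% of all genes, 6.26% higher and 7.41% lower), and 21 of these 23 stood in the study's feeding list for liver. Groups without overlap were seen for 26 genes, 17 higher and 9 lower (21.2% of all genes, 10.1% higher and 11.1% lower). Every one of the 5 tested osmolyte and neurotransmitter carriers had a log2 fold change above 0 (median 0.90). The value 0.90 was that of SLC6A12. It lay at 208, 53.9 and 61.6 CPM in ad libitum and 58.8, 60.9 and 53.2 CPM in restricted livers, where 208 CPM was G1721. Of 15 tested carriers of sugars, monocarboxylates and citrate, 12 were above 0 as well (median 0.39). In that sugar group SLC2A1, SLC16A6, SLC16A9 and SLC13A2 entered the liver test only through the ad libitum group. SLC8A1 and SLC22A15 did so too, and SLC19A2 entered only through the restricted group, so these liver counts are a description only. Of the 13 tested carriers of mitochondria and peroxisomes, 6 were above 0 and 7 below (median -0.12).

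SLC19A1, the reduced folate carrier, had the smallest p in liver. It lay at 56.5, 38.4 and 41.3 CPM in ad libitum hens and at 113, 84.2 and 107 CPM in restricted hens, without overlap. Its log2 fold change was -1.16 (SE 0.21, quasi-likelihood FDR 0.324). SLC41A1, the magnesium carrier, lay at 309, 383 and 372 CPM with ad libitum and 172, 211 and 142 CPM with restricted feeding, also without overlap. The log2 fold change of SLC41A1 was 1.02 (SE 0.20, quasi-likelihood FDR 0.324). Both genes passed with DESeq2 (FDR 0.00133 and 0.00275) and with a likelihood ratio test of edgeR with gene-wise dispersions (FDR 0.00366 and 0.0122). Leaving out the restricted liver G6709 gave 3 calls by the quasi-likelihood test (0.996% of all genes), SLC19A1, SLC41A1 and SLC12A8, each with an FDR of 0.0879. SLC12A8, of the cation-chloride family, lay at 20.2, 20.8 and 12.5 CPM in ad libitum and 4.17, 31.7 and 5.57 CPM in restricted livers, where 31.7 CPM was G6709.

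Ad libitum livers were higher for carriers of several other ions. SLC26A5 lay at 258, 370 and 411 CPM against 234, 155 and 155 CPM. SLC24A4, a sodium, potassium and calcium exchanger, lay at 24.0, 18 and 11.6 CPM against 5.94, 10.9 and 6.21 CPM. SLC8A1, a sodium/calcium exchanger, lay at 4.58, 2.79 and 2.84 CPM against 0.975, 2.02 and 1.37 CPM. None of these 3 overlapped between the groups, and their log2 fold changes were 0.93 (SE 0.25), 1.22 (SE 0.35) and 1.23 (SE 0.38). SLC13A2 lay at 9.45, 3.33 and 4.02 CPM against 2.48, 0.368 and 1.28 CPM, a log2 fold change of 2.01 (SE 0.64). SLC8A1 and SLC13A2 entered the test only through the ad libitum group, where they were high, so their separation is a description only. Restricted livers were higher for SLC7A10, a serine exchanger, at 37.6, 31.9 and 37.0 CPM against 24.5, 19.2 and 24.6 CPM (-0.64, SE 0.18). They were also higher for SLC9A3R1, at 136, 138 and 173 CPM against 117, 78.2 and 80.9 CPM (-0.69, SE 0.21).

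Carriers of the mitochondria and peroxisomes were 4 of the 9 genes of liver in which all restricted hens lay above all ad libitum hens, that is 4 of the 13 tested in this group, beside 11.1% of all genes. The group and its genes were picked after their values were seen. SLC25A1, the mitochondrial citrate carrier, lay at 844, 815 and 885 CPM in ad libitum and 1156, 1149 and 1304 CPM in restricted hens (-0.50, SE 0.17). SLC25A4, an ADP/ATP exchanger, lay at 89.5, 106 and 92.9 CPM and at 132, 134 and 140 CPM (-0.49, SE 0.16). The other 2 were the peroxisomal SLC25A17 (-0.76, SE 0.25) and the oxodicarboxylate carrier SLC25A21 (-0.64, SE 0.21). The quasi-likelihood FDR of each was 0.324. SLC25A1 was in the rows of the feeding list held here for adipose and not in those for liver. SLC25A4, SLC25A17 and SLC25A21 were in those for liver, which are ordered by this contrast. The share of this group beside all genes is therefore a description only.

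In ovary, 16 solute carrier genes had an unadjusted quasi-likelihood p under 0.05, 12 higher and 4 lower in ad libitum hens (4.84% of all genes, 3.01% higher and 1.83% lower), and all 16 stood in the feeding list for ovary. The groups did not overlap for 15 genes (9.57% of all genes, 4.86% higher and 4.71% lower), 10 higher and 5 lower. The log2 fold change lay above 0 for 62 genes (47.7% of all genes) and below for 54, with a median of 0.034, and -0.017 over all genes. SLC46A3, a lysosomal member of the folate carrier family, lay at 23.4, 25.1 and 22.2 CPM in ad libitum hens and at 7.23, 12.1 and 3.59 CPM in restricted hens. Its log2 fold change was 1.67 (SE 0.42), with a quasi-likelihood FDR of 0.878 and a DESeq2 FDR of 0.0729. SLC24A4 lay at 16.3, 10.5 and 12.4 CPM and at 4.12, 6.83 and 2.01 CPM (1.64, SE 0.45). The endosomal sodium/proton exchanger SLC9A9 lay at 15.4, 13.6 and 17.6 CPM and at 8.38, 10.5 and 3.80 CPM (1.08, SE 0.38). M6710 was the lowest of the 6 ovaries for these 3 genes and for all 10 genes in which every ad libitum ovary lay above every restricted one. In that ovary 6 macrophage markers summed to 75.2 CPM, beside 134 and 179 CPM in the other restricted and 238 to 443 CPM in the ad libitum hens. This sum thus did not overlap between the feeding groups either. Singly, SPI1, CTSS, C1QA and CYBB did not overlap, while TLR4 and MARCO did. MARCO lay at 24.0 CPM in M6710, within a range of 12.1 to 40.4 CPM over all ovaries. The part of these markers in the 10 genes was not tested.

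Further ovary genes were higher with ad libitum feeding and separated. SLC26A5 lay at 27.5, 30.8 and 29.5 CPM against 19.97, 22.5 and 18.1 CPM (0.59, SE 0.17). SLC26A3, a chloride/bicarbonate exchanger known from intestine, lay at 2.53, 2.83 and 3.12 CPM against 1.47, 0.706 and 0.274 CPM (1.84, SE 0.58), and entered the test only through the ad libitum group. SLC7A6, a light chain of a cationic and neutral amino acid exchanger, lay at 27.1, 30.4 and 42.2 CPM against 23.3, 22.6 and 19.7 CPM (0.65, SE 0.21). The counting is not stated to use the strand, so reads of SLC7A6 and of SLC7A6OS on the opposite strand cannot be told apart where they overlap. Restricted hens were higher for SLC44A3, at 43.5, 30.8 and 41.6 CPM against 28.4, 24.6 and 22.7 CPM (-0.56, SE 0.19). SLC39A12 lay at 11.1, 6.78 and 4.81 CPM with ad libitum and 7.87, 29.2 and 31.1 CPM with restricted feeding, so its groups overlapped despite a log2 fold change of -1.53 (SE 0.54).

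**Figure D4:**
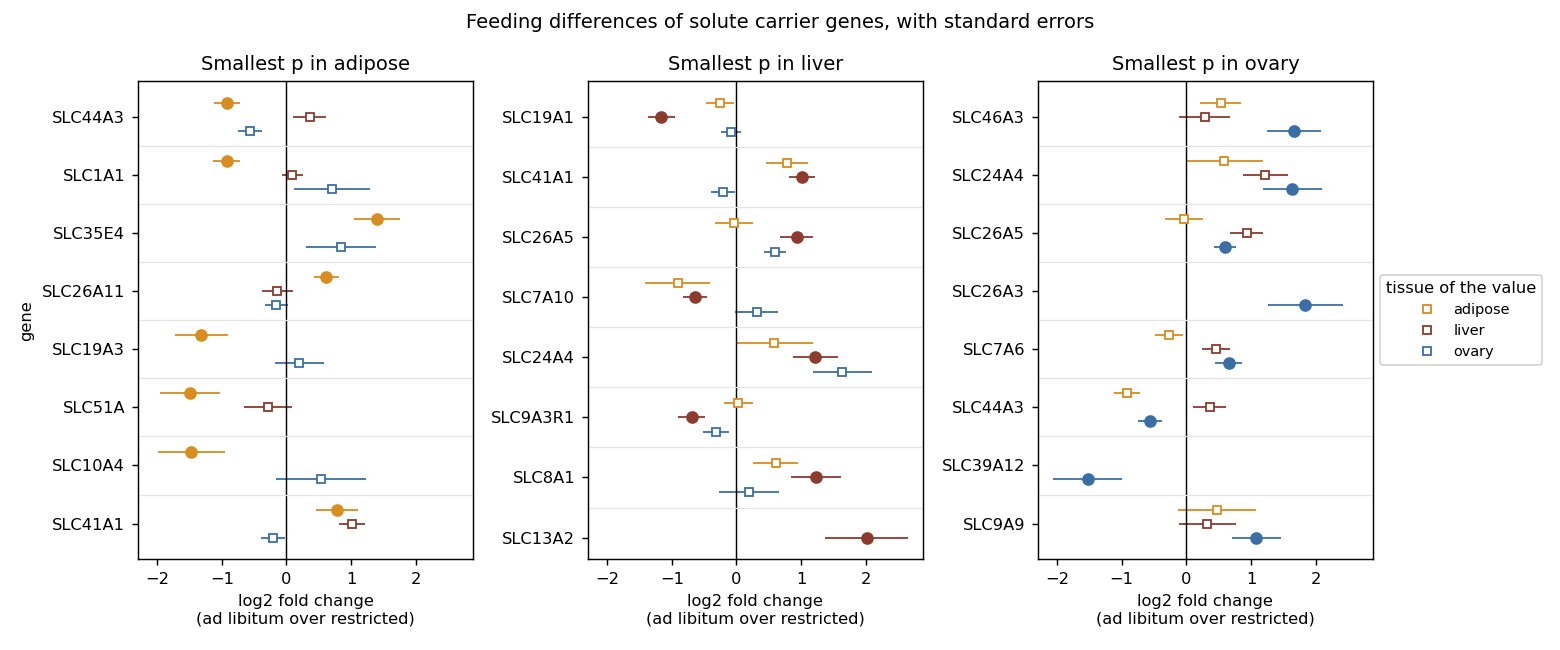
Log2 fold change of ad libitum over restricted feeding with its standard error (3 hens per group) for the 8 solute carrier genes with the smallest p in adipose, liver and ovary. Filled circles are the tissue of the panel and open squares the other tissues where the gene was tested, as in SLC41A1, which is above 0 in adipose and liver and below 0 in ovary.

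Some genes were separated by feeding in more than 1 tissue of the same hens. All ad libitum hens lay above all restricted hens in both liver and ovary for SLC23A2, SLC24A4, SLC26A5, SLC6A6 and SLC7A6, 5 of 99 tested in both (1.21% of all genes tested in both). The 2 tissues come from the same hens, and the feeding list that chose most members was made from these contrasts, so nothing is read from this count. SLC6A6, the taurine carrier, lay in liver at 203, 143 and 227 CPM against 32.2, 81.5 and 126 CPM, and in ovary at 39.8, 50.2 and 44.1 CPM against 26.4, 22.1 and 5.14 CPM. Its log2 fold changes were 1.26 (SE 0.43) in liver, 1.36 (SE 0.54) in ovary and 0.39 in adipose, where the groups overlapped. SLC23A2, the ascorbate carrier, had 0.80 (SE 0.27) in liver and 0.73 (SE 0.30) in ovary. SLC44A3 was the 1 gene tested in both with all restricted hens above all ad libitum hens in adipose and ovary (0.242% of all genes), while in liver its log2 fold change was 0.36 and the groups overlapped.

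Whether a feeding difference itself differed between tissues was tested in the 18 libraries. In no pair of tissues did a solute carrier gene pass an FDR of 0.1 by the quasi-likelihood test, beside 0% of all genes in each pair. The smallest FDR was 0.513 for liver minus adipose, 0.648 for ovary minus adipose and 0.898 for liver minus ovary. An unadjusted quasi-likelihood p under 0.05 was found for 17, 18 and 15 of 123 genes (5.41%, 5.46% and 5.32% of all genes), and with the hen as a replicate block for 16, 17 and 14, again with 0 genes under the FDR. DESeq2 called SLC44A3 and SLC26A9 for liver minus adipose, SLC26A11 and SLC26A9 for ovary minus adipose, and none for liver minus ovary (0.477%, 0.506% and 0.0596% of all genes). For SLC44A3 the difference between the feeding effects of liver and adipose was 1.25 (SE 0.32) on the log2 scale. For SLC26A9 it was 5.71 (SE 1.59), where F6709 held nearly all adipose counts.

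Several feeding differences rested on 1 hen, and the genes below were picked because 1 library was at least 2 times the next. In ovary this library was M1723 for 7 of 116 solute carrier genes tested (1.37% of all genes). The highest ratio was that of SLC4A1, band 3 of erythrocytes, at 22.6 CPM in M1723 and 1.77, 2.79, 1.60, 3.13 and 0.182 CPM in the others. SLC29A4, a plasma membrane carrier of monoamines, lay at 19.4 CPM in M1723 and at 1.81 to 3.10 CPM in the others. SLC7A7, a light chain of an amino acid exchanger, lay at 45.4 CPM beside 2.01 to 8.71 CPM, and SLC38A3, the glutamine carrier, at 12 CPM beside 1.15 to 2.53 CPM. The other 3 were SLC18A1 of chromaffin cells (37.9 CPM, next 7.53 CPM), the copper importer SLC31A1 (75.9 CPM, next 24.7 CPM) and SLC10A4 (3.70 CPM, next 1.64 CPM).

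The log2 fold change of SLC4A1 in ovary was 2.52 (SE 1.22) with all hens and 0.49 without M1723, and the gene entered this test only through the ad libitum group. For SLC29A4 it was 1.69 (SE 0.87) and -0.11 without that hen, and for SLC10A4 0.54 (SE 0.70) and -0.67. In the same ovary the adrenal markers CHGA, CHGB and CYP21A1 lay at 1120, 2170 and 73.4 CPM, beside at most 97.5, 102 and 2.31 CPM in the others, and the hemoglobin genes HBAD and HBBA at 694 and 1984 CPM, beside at most 80.0 and 249 CPM. The part of adrenal or blood RNA in these 7 genes was not tested.

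In adipose the library was F6709 for SLC12A8 (4.07 CPM, next 1.05 CPM) and SLC45A3 (22.4 CPM, next 6.42 CPM), 2 of 104 genes tested (1.78% of all genes). SLC12A8 entered this test only through the restricted group, which holds F6709. SLC26A9 (5.90 CPM, next 0.326 CPM) and SLC16A5 (4.84 CPM, next 1.75 CPM) were likewise highest in that hen and were not tested for feeding. The log2 fold change of SLC45A3 was -1.08 (SE 0.75) with all hens and 0.39 without F6709. In this library the lung markers LL and SFTPA lay at 346 and 305 CPM, beside at most 6.66 and 6.05 CPM in the other adipose libraries, and their part in the 4 genes was not tested. SLC15A1, otherwise an ovary gene, lay at 11.6 CPM in adipose F1721. The 8 ovary markers summed to 85.3 CPM there and to 5.52 to 29.5 CPM in the other adipose libraries. ZP3 made up 76.7 CPM of it, FSHR, INHA, CYP11A1 and FOXL2 were also highest in this library at 0.891, 1.23, 3.08 and 1.37 CPM, and AMH, GDF9 and DAZL were not (1.75, 0.334 and 0 CPM). In the ovaries ZP3, FSHR, CYP11A1 and FOXL2 lay at 19.4 to 195, 26.9 to 58.4, 8.82 to 73.1 and 181 to 455 CPM. INHA was low in ovary itself, at 0 to 2.15 CPM. The part of the ovary markers in the SLC15A1 level was not tested. In liver, G1721 was highest for SLC6A12 (208 CPM, next 61.6 CPM) and SLC13A2, and G1723 for SLC16A6 (31.9 CPM, next 8.04 CPM).

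**Figure D5:**
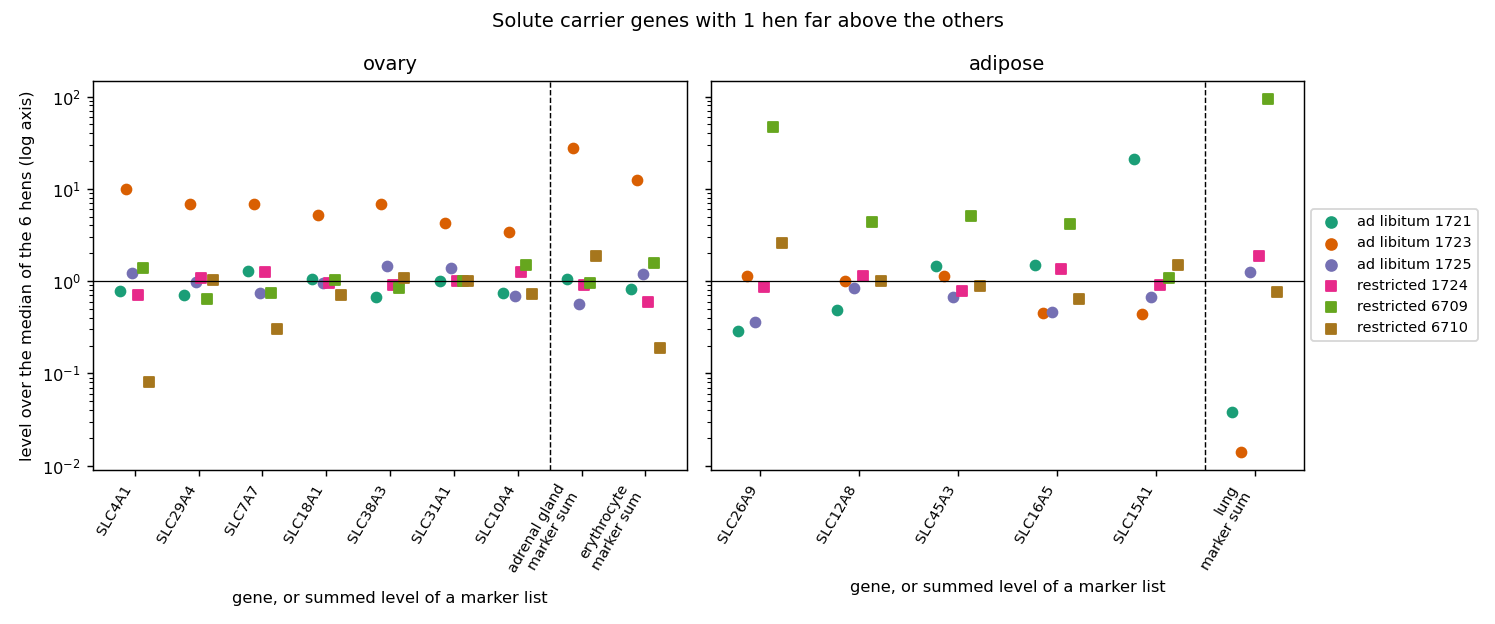
Level in each hen over the median of the 6 hens of the tissue (log axis) for genes with 1 hen at least 2 times the next, with circles for ad libitum and squares for restricted hens, and the summed level of marker lists right of the dashed line. M1723 is highest for all 7 genes and both marker sums in ovary, and F6709 for 4 genes and the lung marker sum in adipose.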

How the data were processed

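The authors deposited raw counts of reads for Ensembl genes in 18 libraries, not normalized. By the study's methods, 125 bp paired reads were mapped to Gallus_gallus-5.0 with TopHat2 2.1.1 and Bowtie2 2.0.6 and counted with GenomicAlignments. Strand, shared reads and mate handling are not stated. From the counts, edgeR 4.0.16 (R 4.3.3) fitted each tissue with TMM and the quasi-likelihood test, with Benjamini-Hochberg FDR under 0.1. Genes entered where they exceeded 1 CPM, taken without TMM factors, in all 3 hens of a feeding group. Tissues were compared in all 18 libraries, and differences of feeding effects likewise. The SE was derived from the fold change and its F statistic, and so restates the test. DESeq2 1.42.0 and other settings were alternatives. Tables and figures were made in Python 3.11.15. Tests were checked on simulated counts with 200 genes changed.

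The gene list, role groups and marker lists were chosen with earlier results of these data known. Genes named are, per feeding comparison, the 8 with the smallest p. Per role group they are the 4 with the largest gap between the highest and next tissue among those called, and the flattest gene, with all sugar carriers. Others named were chosen after their values were seen. A gene that this rule names is not reported here. Symbols cover 5824 of 17108 genes. The same numbers mark the same hens across tissues, so the replicate block rests on the labels. Mean correlations of deviations from group means were 0.040 (adipose and liver), 0.165 (adipose and ovary) and -0.028 (liver and ovary). A list of all solute carrier genes of the genome, tests of gene length and sequences were not used here. Floors of 3 counts cover counting error only, and p-values measure the spread between 3 hens per group.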

Additional observations from a re-analysis of the deposited data

Results flagged for a closer look

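For SLC26A11 and SLC29A3 every ad libitum hen lay on one side of every restricted hen in 1 tissue and on the other side in a second tissue. Among genes tested in both tissues, opposite separation of this kind was found for 0.251% of all genes between ovary and adipose and for 0.362% between liver and adipose. SLC13A2 and SLC22A18 were separated in opposite directions in adipose and liver too, but were too low to be tested in adipose. There SLC13A2 had 2, 0 and 0 counts with ad libitum and 3, 6 and 3 with restricted feeding. SLC22A18 had 3, 5 and 6 and 6, 12 and 9 counts, so both separations in adipose rest on few counts and nothing is read from them. SLC26A11 was higher with ad libitum feeding in adipose (log2 fold change 0.61, SE 0.19) and lower in ovary (-0.16, SE 0.18), where its levels were 13.9, 15.3 and 13.4 CPM with ad libitum and 15.7, 16.3 and 17.5 CPM with restricted feeding. The difference between the effects of ovary and adipose was -0.85 (SE 0.27), with a quasi-likelihood FDR of 0.648 and a DESeq2 FDR of 0.0731. SLC29A3, a lysosomal nucleoside carrier, was higher in adipose (0.45, SE 0.22), at 15.5, 12.6 and 11.3 CPM against 9.19, 10.3 and 8.97 CPM. In liver it was lower (-0.37, SE 0.20), at 11.2, 10.2 and 11.1 CPM against 14.5, 13.7 and 13.8 CPM. Its difference between liver and adipose was -0.84 (SE 0.32), with a quasi-likelihood FDR of 0.821. Neither difference passed the quasi-likelihood test over all genes.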

How the results depend on the processing

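The counts of feeding calls depended on the test. In adipose, the count of 0 became 2 with DESeq2. In liver it became 2 with the likelihood ratio test with gene-wise dispersions, 16 with trended dispersions and 5 with DESeq2, and ranged from 0 to 3 when each hen was left out. In ovary it became 11 with trended dispersions and 1 with DESeq2, and 0 was kept when each hen was left out. The 16 in liver and the 11 in ovary included genes in which 1 hen was far above the next, as named above. For differences between feeding effects, DESeq2 gave 2 for liver minus adipose and 2 for ovary minus adipose, and leaving out each hen gave 0 to 1 for liver minus adipose, the 1 being SLC25A29 without the hen of G6709. With library size alone, 25 genes were highest in liver and 35 in ovary, and with a minimum log2 difference of 2, 5 were highest in adipose and 11 in ovary. The fit with the hen as a replicate block gave 40 genes in liver, 20 in ovary and 12 in adipose, and 0 genes in each difference between feeding effects, and changed no other call count. Shares of all genes are not given here for the replicate block, for the log2 difference of 2 or for the call of SLC25A29. Those counts are a description only. Between tissues, 6 genes named for their tissue levels changed sign in the comparison given for each below. The 9 genes called in liver that turned with library size alone are listed further above, and of them only SLC25A21 and SLC9A3R1 are repeated here. With library size alone, liver minus ovary was -0.30 for SLC25A21, -0.20 for SLC9A3R1, -1.85 for SLC10A7 and -1.65 for SLC18A1, and liver minus adipose was -1.36 for SLC7A5. SLC7A5 was at -0.012 without a filter. SLC10A7 was at -0.0063 with DESeq2, -0.0049 with RLE size factors and -0.082 without a filter. Leaving out each hen, SLC7A5 ranged from -0.10 to 0.45, SLC10A7 from -0.20 to 0.18, SLC18A1 from -0.046 to 0.92 and SLC23A2 (ovary minus adipose) from -0.093 to 0.46. The causes were not tested, apart from the scaling itself. The alternatives for a list of all solute carrier genes were not run, since the reference table used here holds no Ensembl identifiers. With 3 hens per group, differences of low genes such as SLC51A and SLC10A4 rest on few counts.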
